A study of Homo sapiens with 20 samples.

Results

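The early growth response (EGR), Krüppel-like factor (KLF) and immediate early response (IER) genes were followed in Caco-2, an established line from a human colon carcinoma that forms an enterocyte-like layer in culture. The cells met 3 probiotic strains, live or as culture supernatants, or the supernatant of a pathogen. The set holds 10 genes, EGR1, EGR2, EGR3, KLF2, KLF4, KLF6, KLF10, IER2, IER3 and IER5, taken by gene symbol from the array annotation and not by any measured value. Probe sets were named for 9 of the 10 genes, 17 probe sets among the 41091 that carry 1 symbol, and these 9 genes are part of the 19775 genes named on the array. EGR2 was not analysed here.

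The series holds 20 Affymetrix HG-U133 Plus 2.0 arrays in 9 groups, and all cells had been left to differentiate on inserts for 5 days before their apical side was exposed. In the set of 14 arrays made from 5 µg of RNA, each group had 2 arrays: medium at 8 h, live Lactobacillus acidophilus NCFM, live Bifidobacterium lactis 420 or live Lactobacillus salivarius Ls-33 at 20 to 100 bacteria per cell for 8 h, and 10% cell-free supernatant of each of these strains for 24 h. In the other set, of 6 arrays made from 1 µg of RNA, 3 arrays held medium at 24 h and 3 held 5% supernatant of Escherichia coli O157:H7, a Shiga toxin-producing pathogen, at 24 h. MRS broth served for the probiotics and LB broth for E. coli, and broth that had held no bacteria was not analysed here. Each treatment is compared with the medium of its own array set, so the probiotic supernatants, at 24 h, are read against medium at 8 h. The labels call the probiotic samples duplicates and do not say that both came from separate cultures, so the p-values measure only the spread between these arrays, which may be technical. Every culture was of 1 cell line.

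The genes of these families are switched on within minutes of a growth factor, stress or microbial signal, with no need for new protein, and their messenger RNAs and proteins are short-lived. EGR and KLF proteins are zinc finger transcription factors: EGR genes are induced through the ERK kinases and serum response factor and their products bind GC-rich sites, while KLF proteins bind CACCC and GC boxes and steer growth and differentiation. In the gut KLF4 is known as a factor of the differentiated, non-dividing surface epithelium. The IER genes share their early induction rather than a protein fold, and their products act in growth, survival and the heat shock response.

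The regulatory DNA just before the start of transcription is shown for 4 genes whose values carry the results: EGR1 and IER2, which were lower with live bacteria, and KLF4 and KLF6, which were higher with E. coli supernatant. Each line gives the 250 bases before the RefSeq start on the gene's own strand (assembly GRCh38.p14). The windows lie at chr5:138465229-138465478 for EGR1 (plus strand), chr19:13150161-13150410 for IER2 (plus strand), chr9:107489770-107490019 for KLF4 (minus strand) and chr10:3785210-3785459 for KLF6 (minus strand). Capitals mark serum response (CArG) boxes, the core TGACG of the cAMP response element in either orientation, and the EGR site GCGGGGGCG.
EGR1: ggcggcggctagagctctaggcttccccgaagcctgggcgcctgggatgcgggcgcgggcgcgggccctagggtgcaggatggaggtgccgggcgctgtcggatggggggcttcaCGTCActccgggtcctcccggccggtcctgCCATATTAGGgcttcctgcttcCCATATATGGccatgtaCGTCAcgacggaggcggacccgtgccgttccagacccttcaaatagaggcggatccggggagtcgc
IER2: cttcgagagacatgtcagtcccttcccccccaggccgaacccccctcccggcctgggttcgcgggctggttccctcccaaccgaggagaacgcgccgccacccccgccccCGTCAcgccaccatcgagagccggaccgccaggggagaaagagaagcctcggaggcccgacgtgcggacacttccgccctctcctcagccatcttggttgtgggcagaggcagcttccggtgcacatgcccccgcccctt
KLF4: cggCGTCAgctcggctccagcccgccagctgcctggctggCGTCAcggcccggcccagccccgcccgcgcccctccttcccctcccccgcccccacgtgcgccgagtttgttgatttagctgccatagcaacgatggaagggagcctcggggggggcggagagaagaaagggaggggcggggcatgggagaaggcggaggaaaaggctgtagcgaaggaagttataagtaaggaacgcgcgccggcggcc
KLF6: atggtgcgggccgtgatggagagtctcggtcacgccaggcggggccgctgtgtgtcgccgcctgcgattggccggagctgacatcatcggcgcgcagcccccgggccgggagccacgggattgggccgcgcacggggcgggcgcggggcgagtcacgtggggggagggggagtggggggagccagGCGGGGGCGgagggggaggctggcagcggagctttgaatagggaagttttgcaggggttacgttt
The EGR1 window held 2 CArG boxes, the sites that serum response factor binds, at bases -105 to -96 and -83 to -74 counted from the start, and TGACG cores at -135 to -131 and -66 to -62. IER2 held a TGACG core at -140 to -136, KLF4 held them at -247 to -243 and -210 to -206, and KLF6 held an EGR site at -65 to -57. KLF2, whose window is not printed, held an EGR site at -248 to -240, and IER5 held none of the 6 motifs searched on both strands. Of the 35116 RefSeq windows of this length, 1.16% held a CArG box and 4.72% an EGR site. A TGACG core was in 21.2%, the full cAMP response element TGACGTCA, which contains that core, in 1.65%, CACCC in 54.7% and TATAAA in 10.7%. EGR1 and IER2 also held CACCC, and no window of the 6 measured genes with one held TGACGTCA or TATAAA. Windows of EGR3, KLF10 and IER3 were not used here. These matches are descriptions of letters and not measured sites.

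All values are the authors' log2 probe set signals, in which 1 unit is a 2-fold difference. A gene was called where limma's adjusted p over all 11865 genes tested was under 0.05. Array medians lay between 2.66 and 2.72, and arrays of the same group correlated at 0.994 to 0.997 over 13 pairs. The probe sets are 3' biased, and the actin control's 3' minus 5' signal, which grows as RNA is shorter or less fully copied, was 0.802 to 0.878 log2 units in medium at 8 h, 1.08 to 1.54 in the co-cultures, 1.02 to 1.11 with probiotic supernatants, 1.90 to 2.17 in medium at 24 h and 2.12 to 2.22 with E. coli supernatant. It was higher in every co-culture and probiotic supernatant array than in medium at 8 h, and overlapped between medium at 24 h and E. coli supernatant; its part in the results was not tested. Of 12 epithelial markers, 11 lay above the lowest level tested in every group, with FABP1 reaching 13.7, and their summed linear signal ran from 46553 to 60350. Fibroblast markers summed to 3903 to 5780, mostly through LUM and COL1A1, endothelial markers to 172 to 625 through PECAM1 alone, with VWF, CDH5 and KDR under the lowest level tested in every group, and leukocyte markers to 43.1 to 66.4. With E. coli supernatant, PECAM1 fell by 1.44, COL1A1 fell by 0.90 and LUM fell by 0.39, while ITGAM rose by 1.22 from a low level. Of the 11 epithelial markers tested there, 4 were called lower and 4 higher, where 27.8% and 36.3% of all genes were. Among the lower, VIL1 fell from 12.08 to 11.14, FABP1 from 13.43 to 12.39 and APOA4, an enterocyte apolipoprotein, from 12.32 to 11.35. Among the higher, CDX2 rose from 4.71 to 6.23 and SI from 4.06 to 5.05. With live NCFM, B. lactis 420 and Ls-33, PECAM1 changed by -0.36, -0.34 and -0.46, COL3A1 by -0.62, -0.99 and -1.07 and COL1A1 by 0.33, 0.19 and 0.32. Of the 12 epithelial markers, 3, 4 and 5 were called higher with these strains and 4 lower with each. The shares of all genes were 16.8% to 19.4% in each direction. APOA4 fell with these strains from 12.11 to 9.16, 9.35 and 9.52, while SI rose from 6.76 to 7.94, 7.74 and 7.85. APOA4 rose with the 3 probiotic supernatants by 0.66, 0.69 and 0.67. LUM rose with those supernatants by 0.32, 0.41 and 0.44. The part of these markers in the results was not tested. In such bulk samples, fewer expressing cells and less RNA per cell cannot be told apart.

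With live bacteria, EGR1 and IER2 were lower than in medium for all 3 strains, and the other genes of the set were lower for some strains or for none. With probiotic supernatants, KLF4 and IER3 were higher than in medium at 8 h for all 3 strains, by less than 1 log2 unit. The IER3 means with these supernatants lay below that of medium at 24 h in the other array set. With E. coli supernatant, KLF4, KLF6, KLF10, IER2, IER3 and IER5 were each higher by 0.72 to 2.12 log2 units. EGR3 was above the array's lowest signals in that group alone. EGR1 and KLF2 did not pass the test on the probe sets used for them, but the other EGR1 probe sets were called higher there. The log2 changes of all genes of the set are drawn in the plot of changes by comparison.

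**Figure D1:**
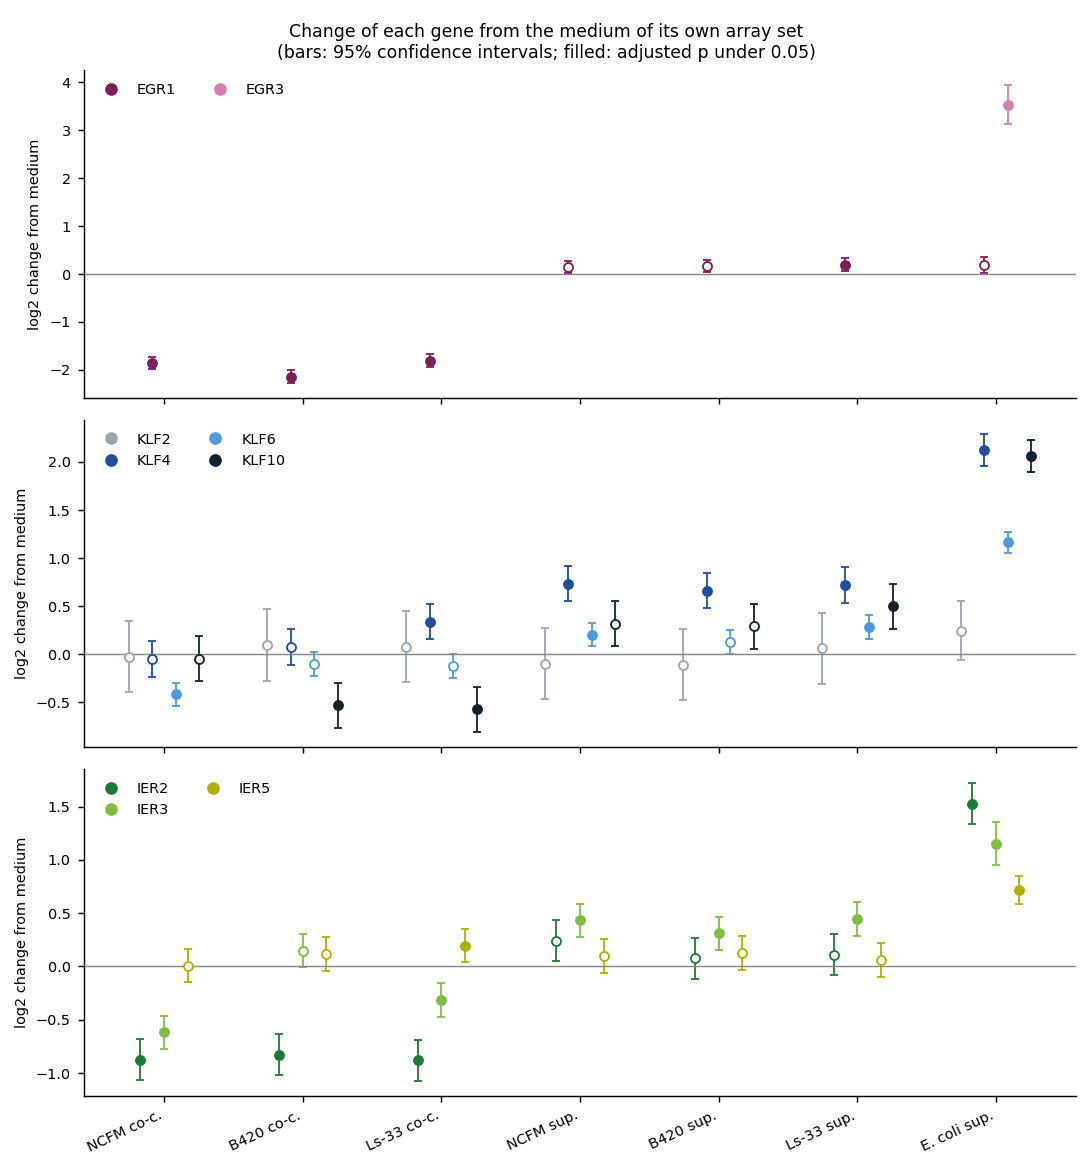
Log2 change against the medium of the same array set (y axis) for the EGR, KLF and IER genes, in 7 comparisons (x axis). Points are fitted changes, bars are 95% confidence intervals and filled points have an adjusted p under 0.05. EGR1 lies near -2 in the co-cultures only, and KLF4 and KLF10 lie near 2 with E. coli supernatant.

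Counts of calls have to be read against how many genes were called on the whole array. Against medium at 8 h, live NCFM lowered 4 of the 8 genes tested (EGR1, KLF6, IER2, IER3) and raised 0, where 18.4% of all genes were called lower and 16.8% higher. Live B. lactis 420 lowered 3 (EGR1, KLF10, IER2) and raised 0, against 16.9% and 18.3% of all genes. Live Ls-33 lowered 4 (EGR1, KLF10, IER2, IER3) and raised 2 (KLF4, IER5), against 19.3% and 19.4%. Both of the latter calls were lost when certain single arrays were left out. The other KLF4 probe set, 220266_s_at, lay lower with live Ls-33, at a mean of 4.91 against 5.38 in medium at 8 h. The median change of the 8 genes was -0.23, -0.01 and -0.22 in the same order of strains, beside medians of -0.01, 0.01 and -0.01 over all genes. By limma without adjustment, at p under 0.05, 0 genes of the set were higher with live NCFM or B. lactis 420, where 21.3% and 23% of all genes were.

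With the probiotic supernatants fewer genes were called on the whole array, and the genes of the set that were called all lay higher. These counts set 24 h against medium at 8 h, so supernatant and time cannot be told apart. The IER3 means lay below that of medium at 24 h in the other array set. With NCFM supernatant 3 of 8 were higher (KLF4, KLF6, IER3), where 5.28% of all genes were called higher and 5.98% lower. With B. lactis 420 supernatant 2 were higher (KLF4, IER3), against 5.98% higher and 9.2% lower over all genes. With Ls-33 supernatant 5 were higher (EGR1, KLF4, KLF6, KLF10, IER3), against 8.48% higher and 8.14% lower. With only the groups compared in the fit, the counts for NCFM and B. lactis 420 were 6 and 4, and the latter was 1 without the trend, without replicate 1 of medium at 8 h or without replicate 2 of the supernatant, while that for Ls-33 was 3 without replicate 2 of its supernatant. No gene of the set was called lower by limma with any of the 3, and 0 were lower at an unadjusted p under 0.05, where 14.1%, 18.3% and 15.3% of all genes were, while 6, 5 and 5 were higher at that level, where 11.5%, 11.5% and 14.6% were. The median changes were 0.22, 0.15 and 0.24, beside -0.02, -0.04 and -0.01 over all genes.

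E. coli supernatant raised 6 of the 8 genes that were also tested in the probiotic set, and lowered none of the 9 tested, where 36.3% of all genes were called higher and 27.8% lower. At an unadjusted p under 0.05, 0 were lower by limma, where 29.6% of all genes were. EGR3 was called too, but it passed the filter on low signals only through the treated arrays, so it had to differ. The median change of the 8 other genes was 1.16, beside 0.05 over all genes.

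**Figure D2:**
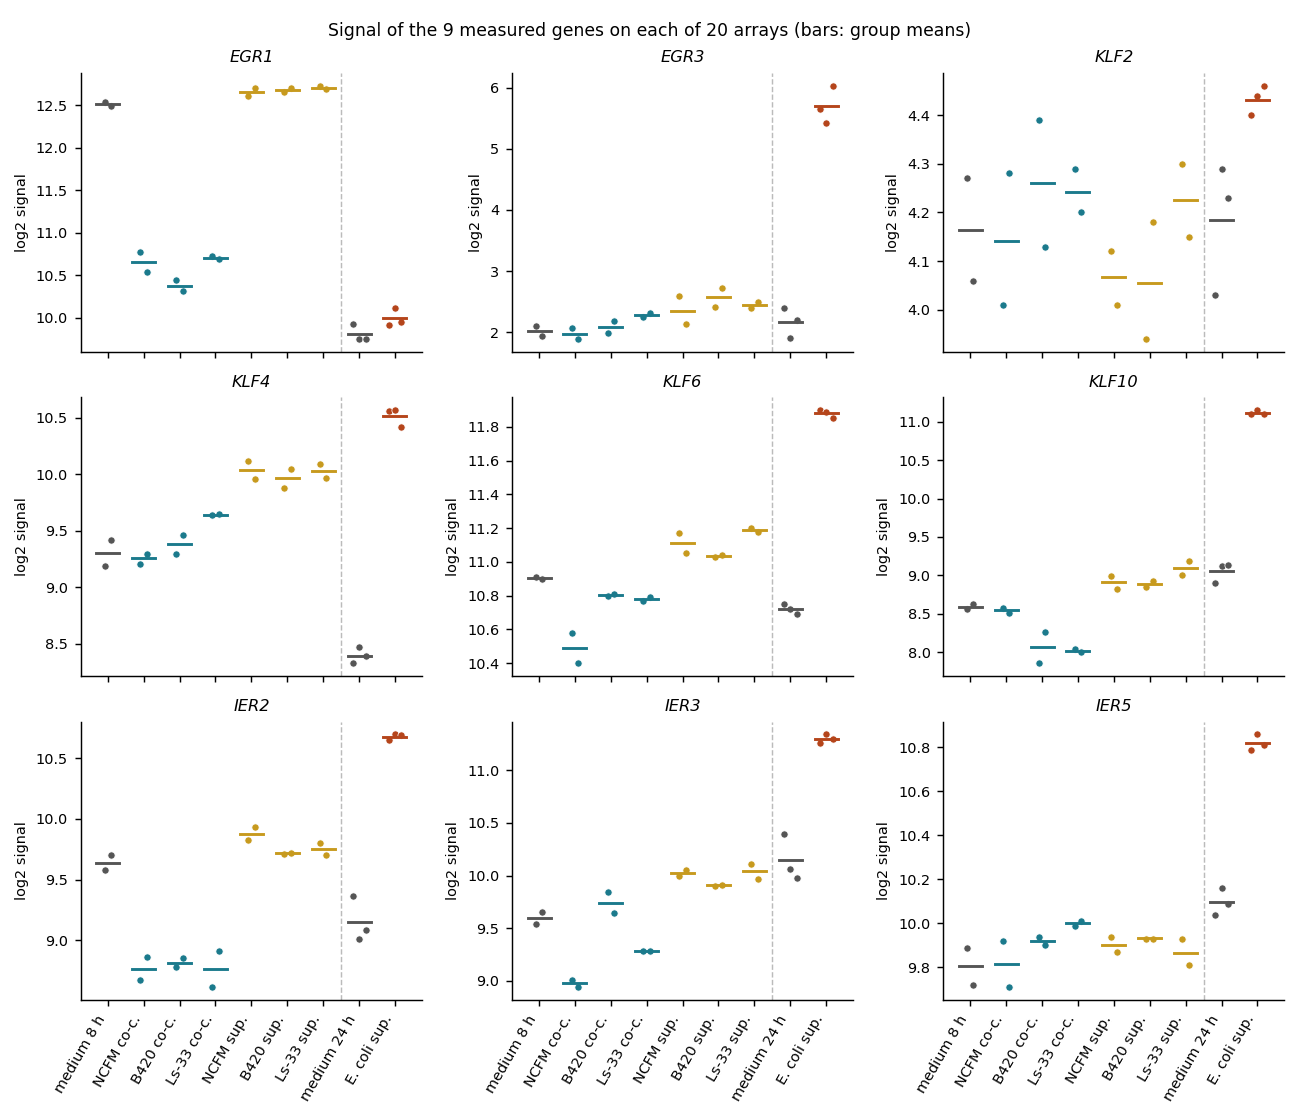
Log2 signal (y axis, scaled separately for each gene) of the 9 measured genes on each of the 20 arrays (points) in the 9 groups (x axis), with bars for group means and a dashed line between the array sets of 5 µg and 1 µg RNA. EGR1 is lower in all 6 co-culture arrays than in medium at 8 h, and EGR3 leaves the lowest signals only in the 3 arrays with E. coli supernatant.

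EGR1, the best known immediate early transcription factor, was read by probe set 227404_s_at. In medium at 8 h it lay at 12.54 and 12.49 log2 units on the 2 arrays. It lay at 10.77 and 10.54 with live NCFM, at 10.44 and 10.31 with live B. lactis 420 and at 10.73 and 10.69 with live Ls-33. All 6 co-culture arrays were below both medium arrays, with no overlap. Against medium EGR1 changed by -1.86 with NCFM (SE 0.061, 3.63-fold lower, adjusted p = 2.31e-14), by -2.14 with B. lactis 420 (4.41-fold lower, adjusted p = 1.23e-15) and by -1.81 with Ls-33 (3.49-fold lower, adjusted p = 2.01e-14). Among all 11865 genes tested, 99.6%, 99.7% and 99.4% had a higher change than EGR1 in these comparisons.

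With probiotic supernatants EGR1 stayed near its level in medium at 8 h. Its 6 array values ran from 12.61 with NCFM to 12.73 with Ls-33, all above both medium arrays, and its changes were 0.15 (adjusted p = 0.130), 0.17 (adjusted p = 0.0646) and 0.20 (adjusted p = 0.0332) for NCFM, B. lactis 420 and Ls-33. The Ls-33 call was lost whenever 1 of its 4 arrays was left out. In the other array set EGR1 lay at 9.93, 9.75 and 9.75 in medium at 24 h and at 9.92, 10.12 and 9.95 with E. coli supernatant. These groups overlapped, and the change of 0.19 (SE 0.078) had an adjusted p of 0.0515. Without replicate 1 of medium at 24 h the change was 0.25 with an adjusted p of 0.00817.

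The EGR1 level thus differed between the media themselves, 12.51 ± 0.040 (SD, n = 2) at 8 h and 9.81 ± 0.10 (SD, n = 3) at 24 h. Array set, time and RNA input differ together here and cannot be told apart, and whether both sets were normalized together is not given in the sources used here. Ordered by level over the 9 groups, the 3 probiotic supernatants came at the top within 0.05 log2 units of each other, against a pooled SD of 0.088. Medium at 8 h came 0.15 below the lowest of them, then live Ls-33 and live NCFM, whose arrays overlapped, then live B. lactis 420, and last E. coli supernatant and medium at 24 h, whose arrays overlapped.

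EGR3, a relative of EGR1 that is best known from neurons and lymphocytes, lay near the lowest signals of the array wherever E. coli supernatant was absent. Its 17 array values in the other 8 groups ran from 1.89 with live NCFM to 2.73 with B. lactis 420 supernatant, and it was not tested in the probiotic set. The E. coli supernatant arrays lay at 5.65, 5.43 and 6.03, against 2.40, 1.91 and 2.20 in medium at 24 h. The 3 treated arrays were far above every other array of the series. The means differed by 3.54 log2 units, but the mean in medium at 24 h, 2.17, lies under the lowest level tested, 2.78, so no fold is given, and since EGR3 entered the test only through the treated arrays, its p-value is not given either.

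KLF4, the gut-enriched factor named above, was read by probe set 221841_s_at. In medium at 8 h it lay at 9.19 and 9.42. It lay at 10.12 and 9.96 with NCFM supernatant, at 9.88 and 10.05 with B. lactis 420 supernatant and at 10.09 and 9.97 with Ls-33 supernatant. All 6 arrays were above both medium arrays. The changes were 0.73 (1.66-fold, adjusted p = 2.24e-05), 0.66 (1.58-fold, adjusted p = 6.30e-05) and 0.72 (1.65-fold, adjusted p = 1.61e-05), and only 0.733%, 1.08% and 1.46% of all genes tested had a higher change.

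Live bacteria left KLF4 closer to medium on this probe set. It lay at 9.21 and 9.30 with NCFM, within the span of the medium arrays, at 9.30 and 9.46 with B. lactis 420, and at 9.64 and 9.65 with Ls-33, above both. The Ls-33 change was 0.34 (adjusted p = 0.0045), and without replicate 1 of medium at 8 h it was 0.22 with an adjusted p of 0.101. E. coli supernatant brought KLF4 to 10.56, 10.57 and 10.42, against 8.33, 8.47 and 8.39 in medium at 24 h. The change was 2.12 (SE 0.075, 4.35-fold, adjusted p = 9.07e-10), the 253rd highest of 11865 genes. Over the 9 groups KLF4 was highest with E. coli supernatant, then in the 3 probiotic supernatants, whose arrays overlapped, and lowest in medium at 24 h.

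KLF10, known as an early target of transforming growth factor beta, lay at 8.56 and 8.63 in medium at 8 h. Live NCFM left it at 8.58 and 8.51, while it lay at 7.86 and 8.27 with live B. lactis 420 and at 8.04 and 8.00 with live Ls-33. The latter 4 arrays were below both medium arrays. The changes were -0.05, -0.53 (adjusted p = 9.55e-04) and -0.57 (adjusted p = 4.10e-04). With supernatants it lay between 8.83 and 9.19 on all 6 arrays, and only the change with Ls-33 supernatant passed the test, at 0.50 (adjusted p = 0.0042), and it was lost without replicate 2 of that supernatant. Medium at 24 h lay at 9.06, close to the mean of 9.09 with Ls-33 supernatant and above the means of 8.91 and 8.89 with those of NCFM and B. lactis 420, so this call too depends on which medium serves as control. KLF10 reached its highest values with E. coli supernatant, 11.10, 11.15 and 11.10, against 8.90, 9.12 and 9.14 in medium at 24 h, a change of 2.06 (SE 0.074, 4.17-fold, adjusted p = 9.58e-10). That group stood 2.02 log2 units above the next, and the pooled SD within groups was 0.12.

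KLF6, a widely expressed factor induced by injury and stress, was read by probe set 1555832_s_at. It lay at 10.91 and 10.90 in medium at 8 h and at 10.58 and 10.40 with live NCFM. The change with NCFM was -0.42 (adjusted p = 1.77e-05), and the changes with live B. lactis 420 and Ls-33 were -0.10 and -0.12, which did not pass the test. With probiotic supernatants its 6 arrays ran from 11.03 to 11.20, all above both medium arrays. NCFM supernatant gave 0.21 (adjusted p = 0.0279) and Ls-33 supernatant 0.28 (adjusted p = 0.0026), while B. lactis 420 supernatant gave 0.13, which did not pass. The arrays with E. coli supernatant read 11.90, 11.89 and 11.85, against 10.75, 10.72 and 10.69, a change of 1.16 (SE 0.048, 2.24-fold, adjusted p = 2.42e-09).

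KLF2, best known as a factor of quiescent endothelium and lymphocytes, was called in none of the 7 comparisons with medium. Its array values ran only from 3.94 to 4.46 over all 20 arrays, and its largest change was 0.25 with E. coli supernatant (adjusted p = 0.141), whose 3 arrays, between 4.4 and 4.46, lay above those of medium at 24 h. The group means of its order from highest to lowest spanned 0.38 log2 units, and from the second place down each group overlapped the next.

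IER2, a nuclear protein of the early growth response, followed EGR1 in direction with live bacteria. It lay at 9.58 and 9.70 in medium at 8 h, at 8.67 and 8.86 with NCFM, at 8.78 and 8.85 with B. lactis 420 and at 8.61 and 8.91 with Ls-33. All 6 co-culture arrays were below both medium arrays, and the 3 strains overlapped one another. The changes were -0.88, -0.83 and -0.88 (SE 0.092), with adjusted p of 4.12e-07, 8.68e-07 and 2.91e-07. Over all genes tested, 96.6%, 96.3% and 96.2% had a higher change. With probiotic supernatants its changes were 0.24, 0.08 and 0.11, and none passed the test. E. coli supernatant brought IER2 to 10.65, 10.70 and 10.69, against 9.36, 9.01 and 9.08 in medium at 24 h, a change of 1.53 (SE 0.086, 2.88-fold, adjusted p = 2.86e-08). IER2 was thus raised where EGR1 did not pass the test on probe set 227404_s_at, although EGR1 probe sets 201694_s_at and 201693_s_at did.

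IER3, a stress-inducible gene whose product influences cell survival, differed most between the live strains among the probe sets used to represent each gene. It lay at 9.54 and 9.65 in medium at 8 h. It lay at 9.01 and 8.94 with live NCFM and at 9.28 and 9.28 with live Ls-33, below both medium arrays, and at 9.84 and 9.64 with live B. lactis 420, which overlapped them. The changes were -0.62 (adjusted p = 2.82e-06), 0.15 (adjusted p = 0.138) and -0.31 (adjusted p = 0.0024) for NCFM, B. lactis 420 and Ls-33. With their supernatants the 6 arrays lay between 9.90 and 10.11, all above both medium arrays. Those changes were 0.43 (adjusted p = 9.54e-04), 0.31 (adjusted p = 0.0086) and 0.44 (adjusted p = 4.77e-04). IER3 was highest with E. coli supernatant, at 11.26, 11.34 and 11.29, against 10.39, 10.06 and 9.98 in medium at 24 h, a change of 1.15 (SE 0.091, 2.22-fold, adjusted p = 4.51e-07). In medium at 24 h IER3 was at 10.15, above all 3 probiotic supernatant means, so the direction of the supernatant changes depends on which medium serves as control. Against medium at 24 h they were -0.12, -0.24 and -0.11.

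IER5, a partner of the heat shock factor HSF1, varied least among the IER genes. Its 14 arrays of the probiotic set ran from 9.71 with live NCFM to 10.01 with live Ls-33. The only call there was with live Ls-33, at 0.20 (adjusted p = 0.0467), and it was lost without replicate 2 of medium at 8 h and without either Ls-33 array. IER5 read higher with E. coli supernatant, at 10.79, 10.86 and 10.81, against 10.04, 10.16 and 10.09, a change of 0.72 (SE 0.059, 1.65-fold, adjusted p = 6.43e-07) with no overlap.

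**Figure D3:**
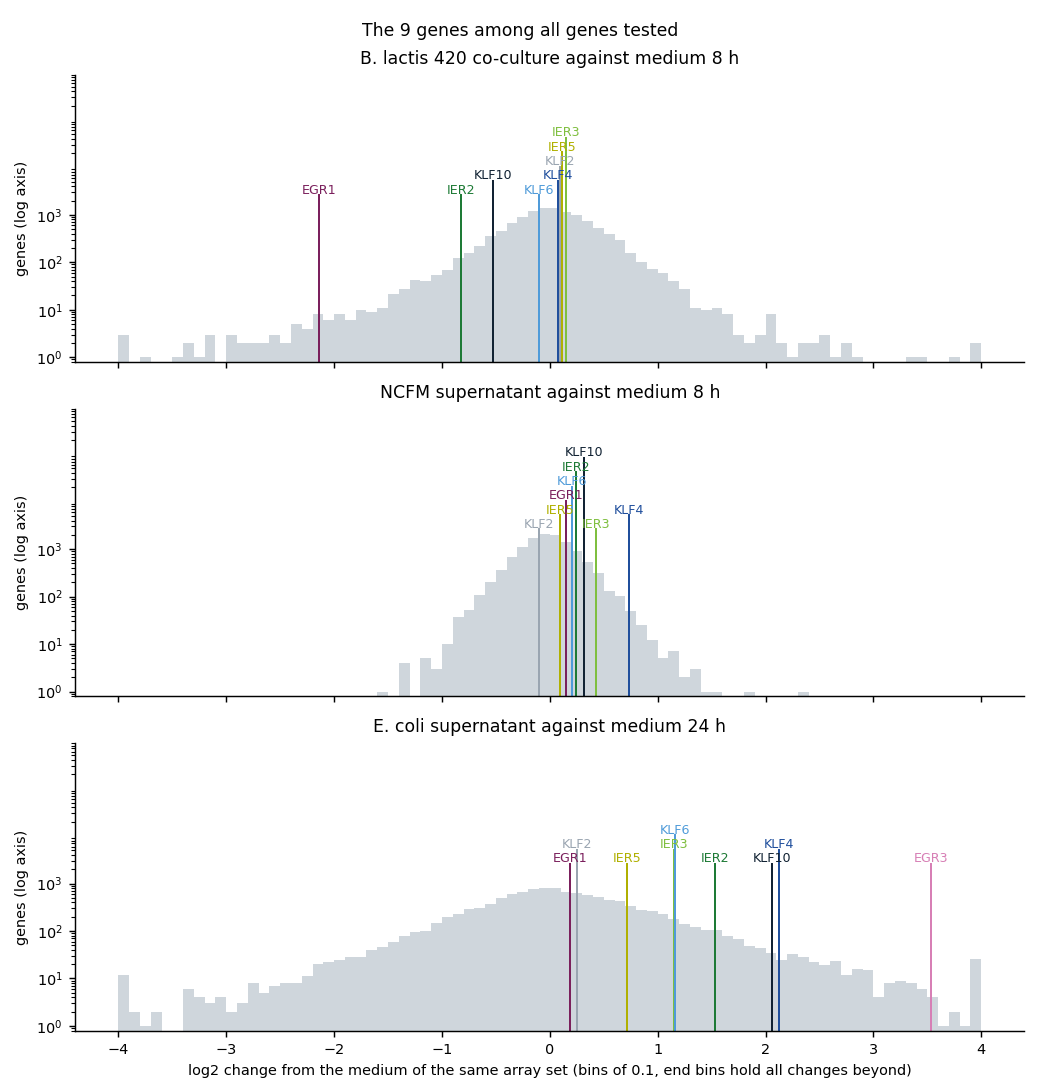
Number of genes (y axis, log scale) by log2 change (x axis) among the 11865 genes tested, for live B. lactis 420, NCFM supernatant and E. coli supernatant, with the measured genes of the set marked. EGR1, at -2.14, lies at the far left with live B. lactis 420, and KLF4, at 0.73, lies near the right edge with NCFM supernatant.

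The 3 live strains were compared with each other at the same time and dose range. The test across strains called 5 of the 8 genes, EGR1, KLF4, KLF6, KLF10 and IER3, where 13.7% of all genes were called. Without the trend in eBayes the same test called 2, KLF10 and IER3. The strain means of the 5 genes spanned 0.34, 0.39, 0.32, 0.53 and 0.77 log2 units in the same order. IER2 was not among them, and its 3 strain means spanned 0.05 log2 units.

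Pair by pair, live B. lactis 420 differed from live NCFM in 4 genes, where 3.03% of all genes were called: EGR1 (-0.28) and KLF10 (-0.48) were lower and KLF6 (0.32) and IER3 (0.77) higher. Without replicate 1 or without replicate 2 of live NCFM, only 2 genes were called, and without the trend or with only these groups in the fit only 1 was. Live Ls-33 differed from live NCFM in 4 genes, where 14.7% of all genes were called: KLF4 (0.39), KLF6 (0.29) and IER3 (0.30) were higher and KLF10 (-0.53) lower. Live Ls-33 differed from live B. lactis 420 in 2 genes, where 5.58% were called: EGR1 was higher (0.34) and IER3 lower (-0.46), of which 1 was called without the trend. The EGR1 differences depend on the probe set. For NCFM, B. lactis 420 and Ls-33 the means were 7.77, 7.66 and 7.97 on 201694_s_at and 3.20, 3.19 and 3.17 on 201693_s_at. The dose is given only as a range for all strains, so the bacteria per cell in each culture are not known.

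Among the 3 probiotic supernatants the test across strains called 0 of the 8 genes by limma, and 0 had an unadjusted p under 0.05. Over all genes 0.0337% were called, and 951 genes, or 8.02%, had an unadjusted p under 0.05. The strain means of the 8 genes spanned a median of 0.14 log2 units, beside 0.16 over all genes.

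Live bacteria and the supernatant of the same strain share the cells and the array set but differ in time, 8 h against 24 h, and in dose. Live NCFM gave lower values than its supernatant for 6 of 8 genes, where 18.3% of all genes were called lower. Live B. lactis 420 gave lower values than its supernatant for 5, against 15.7%, and live Ls-33 for 6, against 16.3%. EGR1 was lower by the most, at -2.01, -2.31 and -2.00 for NCFM, B. lactis 420 and Ls-33. IER2 followed at -1.12, -0.90 and -0.99, and KLF10 gave -0.36, -0.82 and -1.07. KLF4 gave -0.78, -0.58 and -0.38, KLF6 gave -0.62, -0.23 and -0.41, and IER3 gave -1.05, -0.16 and -0.76, of which only the IER3 value for B. lactis 420 did not pass the test. IER5 and KLF2 passed in none of the 3, and no gene was called higher by limma with live bacteria than with the supernatant of the same strain, nor at an unadjusted p under 0.05.

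The change with E. coli supernatant less the mean change with the 3 probiotic supernatants was tested as a difference of changes, each against its own medium. All 20 arrays of both sets entered that fit. It was higher for 6 of 8 genes, where 31.4% of all genes were called higher. The differences were 1.69 for KLF10, 1.42 for KLF4, 1.39 for IER2, 0.96 for KLF6, 0.76 for IER3 and 0.62 for IER5. EGR1 at 0.02 and KLF2 at 0.30 did not pass. The other EGR1 probe sets gave 0.34 (201694_s_at) and 0.74 (201693_s_at), differences that were not tested. Bacterium, share of supernatant, broth, RNA input, array set and time of the control differ together in this comparison and cannot be told apart.

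Several genes are read by more than 1 probe set, which sample different parts of the transcript. The 3 EGR1 probe sets gave -1.86, -1.52 and -1.70 with live NCFM, -2.14, -1.62 and -1.71 with live B. lactis 420, and -1.81, -1.32 and -1.73 with live Ls-33 (227404_s_at, 201694_s_at and 201693_s_at). Under E. coli supernatant the same probe sets gave 0.19, 0.40 and 0.99, and the latter 2 passed the test where the first did not. The size of the EGR1 change with E. coli supernatant therefore depends on the probe set.

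The second KLF4 probe set, 220266_s_at, gave another answer with live bacteria. It lay at 5.59 and 5.17 in medium at 8 h and at 4.03 and 4.08 with live NCFM, a change of -1.32 (adjusted p = 2.44e-05) where 221841_s_at gave -0.05. The signs were opposite for live B. lactis 420, at -0.40 against 0.08, and for live Ls-33, at -0.47 against 0.34. Across the live strains 220266_s_at spanned 0.93 log2 units (adjusted p = 0.0031), more than any of the probe sets used above. E. coli supernatant raised both, by 2.01 and 2.12. Among the KLF6 probe sets well above the lowest signals, all 4 rose with E. coli supernatant, by 1.16 to 1.66. With live NCFM they ranged from -0.82 for 208960_s_at to -0.01 for 224606_at, and with live B. lactis 420 the latter rose by 0.23 (adjusted p = 0.012). KLF2 probe set 226646_at and KLF6 probe set 211610_at lay at or near the lowest signals and add nothing.

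**Figure D4:**
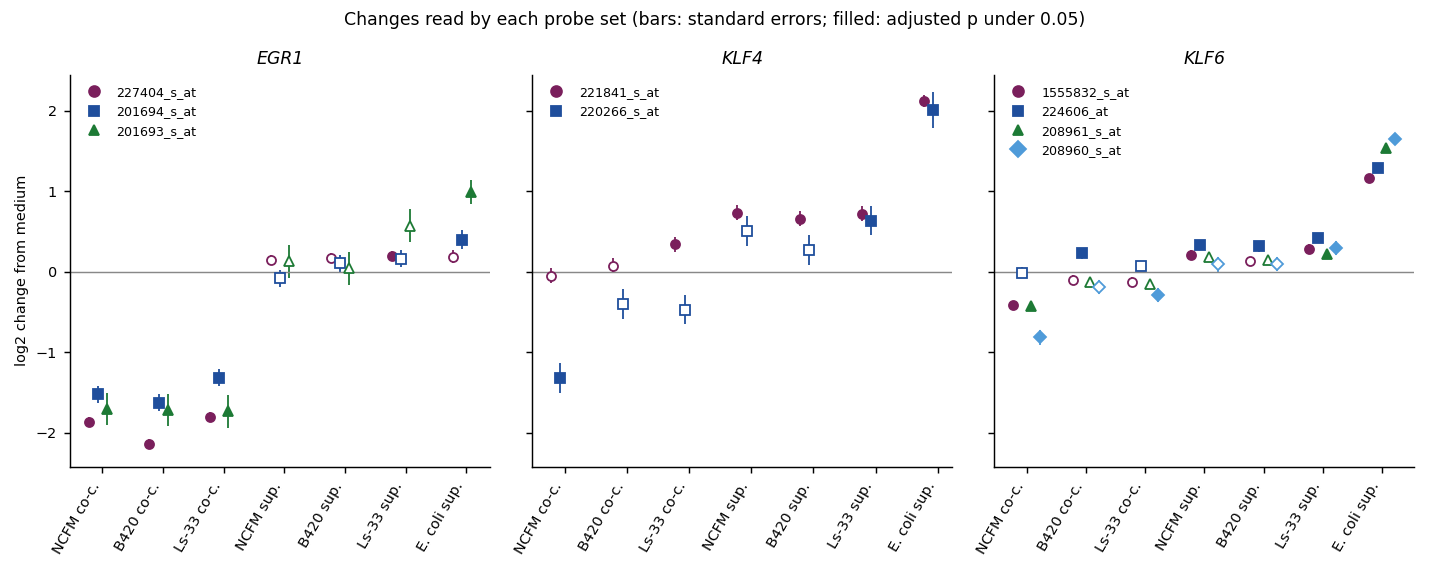
Log2 change against the medium of the same array set (y axis, bars are ± 1 SE) in 7 comparisons (x axis). Each probe set of EGR1, KLF4 and KLF6 that was tested in all 7 is drawn. The 3 EGR1 probe sets all fall with live bacteria, while the KLF4 probe sets give -0.05 and -1.32 with live NCFM.

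The counts over other lists are read against the shares of all genes called: 16.8% to 19.4% in each direction with live bacteria, 5.28% to 9.2% with probiotic supernatants, and 36.3% higher and 27.8% lower with E. coli supernatant. Other immediate early genes were counted over a list of 32, which holds none of the 10. Of the 27 tested in the probiotic set, 2 were higher and 12 lower with live NCFM, 3 higher and 9 lower with live B. lactis 420, and 5 higher and 7 lower with live Ls-33. Their median changes were -0.22, -0.08 and -0.09. DUSP1, a phosphatase that shuts off stress kinases, changed by -0.63, -0.61 and -0.76. CCN2, a matrix protein gene, changed by -0.80, -1.24 and -1.08, and PPP1R15A, which reverses the stress block on translation, by -0.98, -0.91 and -0.76. JUN, a partner of FOS in the AP-1 factor, moved the other way, by 0.71, 0.81 and 0.94.

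With probiotic supernatants 11, 10 and 14 of the 27 were higher and 0, 2 and 0 lower, for NCFM, B. lactis 420 and Ls-33, with medians of 0.30, 0.25 and 0.39. JUN rose by 0.91, 0.85 and 1.26, DUSP1 by 0.64, 0.63 and 0.74 and TRIB1, a pseudokinase gene, by 0.70, 0.60 and 0.69. Under E. coli supernatant 29 of 30 tested were higher and 0 lower, with a median of 1.55. Of these 30, FOSB, FOSL1 and DUSP2 lay under the lowest level tested in medium at 24 h and had to differ, and 26 of the other 27 were higher. ATF3, a stress-induced factor, rose by 5.83, JUN by 3.79, MAFF by 3.37, PPP1R15A by 2.96 and DUSP1 by 2.64. NR4A1, at -0.19, was the 1 gene not called.

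**Figure D5:**
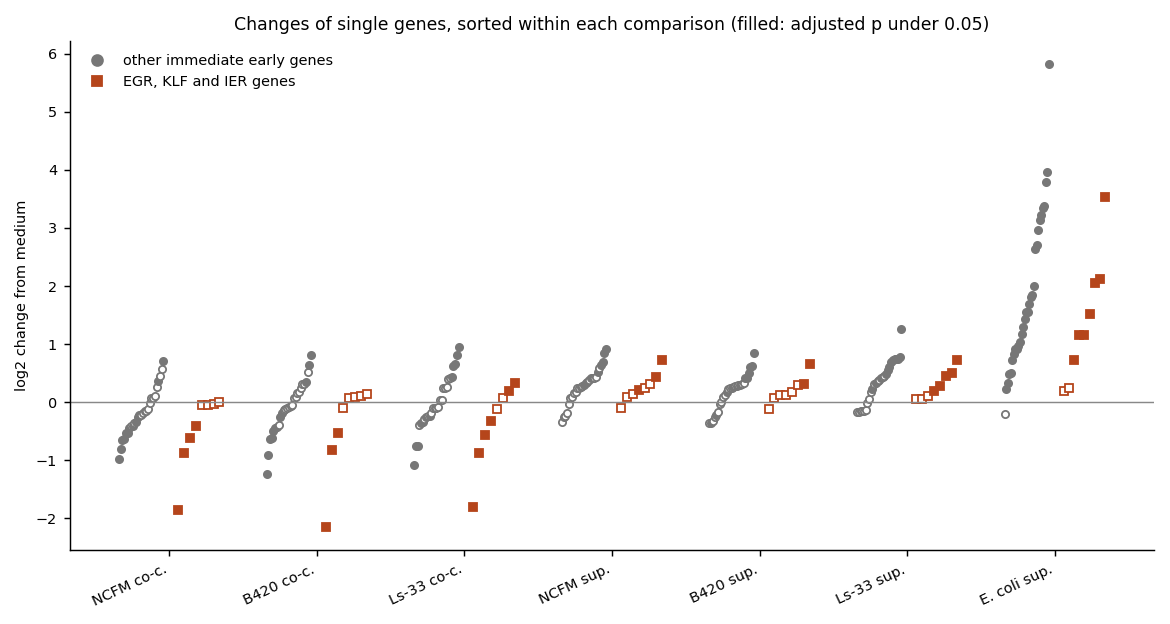
Log2 change against the medium of the same array set (y axis) of the other immediate early genes (grey circles) and of the measured EGR, KLF and IER genes (squares), sorted by size within each of the 7 comparisons. With E. coli supernatant nearly all points lie above 0, while with live bacteria EGR1 is the lowest or near the lowest point.

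Transcripts that rise and fall with ERK activity, the kinase cascade that feeds the EGR1 promoter, were counted over 10 genes. With live NCFM, B. lactis 420 and Ls-33, 6, 7 and 5 were lower and 1, 1 and 2 higher, with median changes of -0.39, -0.51 and -0.33. DUSP6, a phosphatase that acts on ERK, changed by -0.62, -0.75 and -0.54. EPHA4, a receptor kinase, rose by 1.75, 1.75 and 1.64. With the supernatants of the 3 strains 1, 2 and 2 were higher and 1, 0 and 1 lower. Under E. coli supernatant 6 were higher and 1 lower, with a median of 0.67: DUSP4, another ERK phosphatase, rose by 3.998, EPHA4 by 2.36 and PHLDA1 by 1.45, while DUSP6 fell by 0.64.

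Of the proteins that act on the EGR genes or with them, 10 of 11 listed genes were tested. With the 3 live strains 1 of these was higher in each, and 2, 1 and 1 were lower. These counts are close to or below the 16.8% to 19.4% of all genes called in each direction. ELK3, a partner of serum response factor, rose with live NCFM (0.51) and live Ls-33 (0.79), and its value with live B. lactis 420, 0.35, did not pass. It also rose with all 3 supernatants, by 0.49, 0.72 and 0.61, in each of which 2 genes were higher and 0 lower. NAB2, a corepressor that EGR proteins induce and that holds them in check, changed by -0.55 with live Ls-33. E. coli supernatant left 5 genes higher and 1 lower: FHL2 rose by 1.59, MRTFA, a coactivator of serum response factor, by 1.43 and SRF itself by 0.56, while the corepressor NAB1 fell by 0.71.

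Of the relatives in the same families, 11 of 16 listed genes were tested in the probiotic set. With each live strain 0 were higher and 2 lower, 2 of 11 being close to the 16.9% to 19.3% of all genes called lower, and with each supernatant 0 were called by limma. At an unadjusted p under 0.05, 1, 0 and 0 passed with the supernatants of NCFM, B. lactis 420 and Ls-33. KLF12, a repressor, changed by -0.34, -0.73 and -0.62 with live NCFM, B. lactis 420 and Ls-33 and by -0.75 with E. coli supernatant. There 3 of 10 tested were higher and 2 lower, among them WT1, which binds sites like those of EGR1, at 1.45, and KLF13 at -0.75.

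Of 8 reported EGR1 targets, 0, 1 and 0 were higher and 1, 1 and 2 lower with live NCFM, B. lactis 420 and Ls-33, and PDGFA, a growth factor gene, was lower in all 3, at -0.85, -0.52 and -0.45. With the supernatants 0, 1 and 1 were higher and 0, 1 and 0 lower. The 1 lower was again PDGFA, at -0.49 with B. lactis 420 supernatant, where EGR1 was not lower. With E. coli supernatant 2 were higher, PDGFB at 0.74 and THBS1 at 0.53, and 1 lower, PTGES at -0.71. Both counts are below the shares of all genes called there, 36.3% higher and 27.8% lower. In medium at 24 h PDGFB lay at 2.92 and THBS1 at 2.90, near the lowest level tested, 2.78.

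Of 6 reported KLF4 targets in epithelium, 4, 3 and 3 were lower and 1 higher with each live strain, and 2, 3 and 3 were higher with the supernatants, with 0 lower. The list mixes genes reported as activated and genes reported as repressed by KLF4, so these counts have no common direction. CDKN1A, a brake on the cell cycle that KLF4 is known to activate, was lower with live NCFM, B. lactis 420 and Ls-33, at -0.90, -0.38 and -0.33, and higher with their supernatants, by 0.50, 0.41 and 0.43. ODC1, an enzyme of polyamine synthesis that KLF4 is known to repress, was higher with the live strains, by 0.64, 0.80 and 0.78, with the supernatants of NCFM (0.32) and Ls-33 (0.45), where KLF4 was higher too, and with E. coli supernatant by 0.94. ALPI, the enterocyte alkaline phosphatase, changed by -0.77, -0.67 and -0.52 with the 3 live strains. CCND1 changed by -0.47, -0.46 and -0.79 with them, and by 0.24 with B. lactis 420 supernatant. With E. coli supernatant 2 were higher and 1 lower, and CDH1, the adherens junction cadherin, changed by -0.28. KLF4 was higher there, while CDKN1A, at -0.01, and ALPI, at -0.03, did not pass the test.

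Likeness of pattern was measured as Pearson's r over the 7 changes, which share medium arrays, among 4667 genes whose changes varied enough, and it is given as a description. The closest to EGR1 were BET1, ZNF217 and SPRED1, at 0.997, 0.995 and 0.993. DUSP1 was among the 3 closest to IER2 (0.997), behind MYO5B and ASAH2B, and CCN2 was the closest to KLF10 (0.996). The closest to KLF4 was ZNF165 (0.999), to KLF6 NOSTRIN (0.996), to IER3 ABCA17P (0.981), to IER5 SDR42E1 (0.998) and to KLF2 COA7 (0.975). Within the set KLF4 and KLF6 were the most alike, at 0.987, EGR1 and IER2 reached 0.823, EGR1 and IER5 0.325, and EGR1 and KLF2 gave -0.110. With 7 points that share controls these values order the genes and no more.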

How the data were processed

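RNA of 20 Caco-2 samples was measured on Affymetrix HG-U133 Plus 2.0 arrays. The deposited log2 values came from RMA as run by the authors, per the submitters' processing notes; neither its version nor a joint normalization of both array sets is stated in what was used here. Of 54675 probe sets, 41091 carried 1 symbol; 1801 carried several and 11721 none, and were not used. Each gene was read by its brightest probe set on average over the 20 arrays, avoiding cross-hybridizing ones where others existed. Genes above the 40th percentile of mean signal (2.74 log2 units in the 14-array set, 2.78 in the 6-array set) were tested with limma 3.58.1 in R 4.3.3 (lmFit, eBayes with trend), each set on its own, with Benjamini-Hochberg adjustment over 11865 genes. Only the difference between E. coli and probiotic supernatants was fitted over all 20 arrays together, where the 40th percentile was 2.76. Scripts were tested on simulated data. The number of arrays limits the precision.

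The genes of the set, the lists and the tests were chosen with earlier results of these data known. The text names all genes of the set with all their probe sets, of each other list up to 3 called genes with the lowest adjusted p in each comparison, whose values are then given in others too, and for likeness the 3 genes with the highest correlation among those whose 7 changes had an SD of at least 0.3. SRF and NR4A1 were named after their values were seen. The contrasts of live bacteria with the same strain's supernatant, the difference between E. coli and probiotic supernatants, and a crossed pairing were added after values were seen. Replicate numbers did not pair the arrays: no correlation of same-numbered arrays exceeded 0.1. Alternatives were other probe sets, filters, quantile normalization of all arrays, no trend, only the groups compared, all 20 arrays together, the 24 h medium as control, a replicate block, and leaving out each array. EGR2 was not analysed here.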

Additional observations from a re-analysis of the deposited data

Results flagged for a closer look

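The change with E. coli supernatant less the mean change with the 3 probiotic supernatants passed the test of the difference for 6 of 8 genes, where 31.4% of all genes were called higher. It was 1.69 log2 units for KLF10, 1.42 for KLF4, 1.39 for IER2, 0.96 for KLF6, 0.76 for IER3 and 0.62 for IER5. Bacterium, share of supernatant, broth, RNA input, array set and time of the control differ together here and cannot be told apart.

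Among the 3 live strains the test across strains passed for 5 of 8 genes, where 13.7% of all genes were called. Their strain means spanned 0.77 log2 units for IER3, 0.53 for KLF10, 0.39 for KLF4, 0.34 for EGR1 and 0.32 for KLF6. The EGR1 span is that of 227404_s_at. On 201693_s_at the EGR1 means were 3.20, 3.19 and 3.17 for live NCFM, B. lactis 420 and Ls-33. IER3 and KLF10 order the strains differently: IER3 was highest with live B. lactis 420, at 9.74, and KLF10 with live NCFM, at 8.55. Groups of 2 or 3 arrays are too small to single out an array far from the others.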

How the results depend on the processing

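Of the counts of genes called, 182 stayed within 1.5 times the value reported and 14 moved further; of the values of single genes, 1565 kept direction and side of the threshold, 61 lost and 29 gained a call, and 5 reversed. With NCFM supernatant the count was 6 with only the groups compared and 5 against medium at 24 h. With B. lactis 420 supernatant it was 1 without the trend in eBayes, 4 with only the groups compared, 6 against medium at 24 h, and 1 to 2 when 1 array was left out. With Ls-33 supernatant it was 3 to 4 when 1 array was left out. Without the trend the test across live strains called 2 genes, B. lactis 420 against NCFM 1 and Ls-33 against B. lactis 420 1; with only the groups compared B. lactis 420 against NCFM called 1, and 2 to 3 when 1 array was left out. KLF4 with live Ls-33 reversed to -0.47 on probe set 220266_s_at, EGR1 between live Ls-33 and B. lactis 420 to -0.015 on 201693_s_at, and IER3 with the supernatants to -0.12, -0.24 and -0.11 against medium at 24 h; the cause was not tested. In that comparison EGR1 was 2.85 and 2.88 higher with the supernatants of NCFM and B. lactis 420 than in medium.

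Calls lost when 1 array was left out were KLF4 and IER5 with live Ls-33, EGR1 and KLF10 with Ls-33 supernatant, KLF6 with NCFM supernatant and IER3 with B. lactis 420 supernatant. EGR1 with E. coli supernatant gained a call with the 60th percentile filter (adjusted p = 0.0470) and with all 20 arrays in 1 fit (adjusted p = 0.0106). Arrays with the same replicate number did not deviate together (r = -0.10 to 0.06 over 21 pairs of groups, -0.14 to 0.03 over 3 replicate pairs). The replicate block changed no count: 4, 3 and 6 with live NCFM, B. lactis 420 and Ls-33, 3, 2 and 5 with their supernatants and 7 with E. coli supernatant. The 7 include EGR3, which passed the filter only through the treated arrays and had to differ. A crossed pairing of live NCFM with its supernatant, chosen after seeing the data, gave 6 as reported. The 2 arrays in each group limit every probiotic comparison.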
